A study of Mus musculus with 22 samples.

Results

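The 5′ UTRs described here had a clear RNA-seq signal for their length but few ribosome footprints relative to the CDS. They were found among 10516 genes of NIH3T3 cells, a fibroblast line from mouse embryos, of which 10400 had a finite 5′ UTR value in all libraries. A 5′ UTR was taken when its mean RNA-seq signal over the 5 control libraries reached 10 RPKM (reads per kilobase of region, scaled to the size of the library) and its mean footprint RPKM in the 5 control libraries was below 0.05 of that of the CDS of the same gene. The RNA filter left 5650 genes, and 953 of them (16.9%) had a ratio below 0.05. These 953 genes are called footprint-poor below, and the remaining 4697 the other genes. Since the control values chose the genes, the control ratios are a description, and genes picked for low values in a set of libraries tend to show higher values in the next set.

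Cells had been transduced with lentivirus for shRNA1 or shRNA2 against Denr, or for Gfp or scramble shRNA as controls, and selected with puromycin, so that all groups carried a viral shRNA. There were 3 lysates each for Denr shRNA1, Denr shRNA2 and scramble shRNA and 2 for Gfp shRNA, each from 1 dish of confluent cells treated with 100 µg/ml cycloheximide for 2 min before lysis. Every lysate gave an RPF-seq library, from mRNA fragments that ribosomes protect against nuclease, and an RNA-seq library. The study calls its triplicates biological, but whether the dishes came from separate transductions is not given in the sources used here, so p-values measure the spread between dishes of a single line. All comparisons with control lysates share the same 5 controls.

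In cap-dependent initiation, a small ribosomal subunit binds at the 5′ end of the mRNA, moves along the 5′ UTR and stops at a start codon, usually an AUG. Scanning subunits without a 60S partner are not recovered as the footprints counted here, so footprints on a 5′ UTR mostly come from upstream open reading frames (uORFs). DENR, which acts with MCTS1, takes part in recycling of post-termination 40S subunits and in reinitiation after uORFs. The bases around an AUG affect its use: a purine at position -3 and a G at +4, counted from the A of the AUG as +1, are the best known. Genes with very short 5′ UTRs can carry an element called TISU at the start codon, which allows initiation close to the cap.

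The start codon regions of 8 footprint-poor genes are shown as examples. They do not stand for shares of the group: the first 4 carry a motif found in 13.0% of it, and Rps3 was shown because it has that motif. Each line gives the 20 bases before the AUG, the AUG and the 4 bases after it, with position -3 and the bases AUG and +4 in capitals. The sequences are those of GENCODE transcripts on GRCm38.

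Rps3: cagcggcgcgcggctgcAagATGGcgg

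Uqcrb: cgcttcactctcaggtcAaaATGGcgg

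Eif3e: cgctcctttcccccggcAagATGGcgg

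Zfp830: cctgagtcctgggcgcaAacATGGcgt

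Psmb4: tgtcggctgaggtgactAagATGGaag

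Ppia: tttcgccgcttgctgcaGccATGGtca

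Atp5b: gtctccacccggattccGccATGTtga

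Cox6a1: cggcgcgccggtgtagtTccATGAtgg

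The first 4, from Rps3 (a protein of the small ribosomal subunit, chr7:99483615-99483641, minus strand), Uqcrb (a subunit of respiratory complex III, chr13:66905305-66905331, minus strand), Eif3e (a subunit of initiation factor eIF3, chr15:43282686-43282712, minus strand) and Zfp830 (a zinc-finger protein, chr11:82764352-82764378, plus strand), share the letters AANATGGCG at the start codon. Psmb4 (a proteasome subunit, chr3:94886902-94886928, minus strand) and Ppia (cyclophilin A, chr11:6415891-6415917, plus strand) have the purine and the G but other bases after them. Atp5b (the beta subunit of ATP synthase, chr10:128083307-128083333, plus strand) has the purine alone, and Cox6a1 (a subunit of cytochrome c oxidase, chr5:115348944-115348970, minus strand) has neither. All windows lie within an exon and span the end of the 5′ UTR and the beginning of the CDS.

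The low footprint level held in the lysates that the choice did not use. On the mean of the 6 Denr knockdown lysates, 729 of the 953 genes (76.5%) were below 0.05, while 23 of the 4697 other genes were. The median ratio of the footprint-poor genes in a lysate was 0.0201, 0.0243 and 0.0245 with Denr shRNA1, and 0.0144, 0.0199 and 0.0148 with Denr shRNA2, against 0.507 to 0.629 for the other genes in these lysates. The controls, which made the choice, had medians of 0.0104 and 0.0155 (Gfp shRNA) and 0.0141, 0.0130 and 0.00310 (scramble shRNA). The mean of the lysate medians was 0.0197 ± 0.00440 (SD, n = 6) in knockdown and 0.0112 ± 0.00491 (SD, n = 5) in control lysates. The knockdown values ran from 0.0144 to 0.0245 and overlapped with the control values only between 0.0144 and 0.0155.

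Of all reads on the 5′ UTR or CDS of the footprint-poor genes, 0.900% to 1.60% lay on the 5′ UTR in knockdown and 0.628% to 0.914% in control RPF-seq libraries. For the other genes the shares were 10.1% to 11.9% and 7.60% to 10.05%. In RNA-seq the 2 sets were much closer, at 7.60% to 8.72% and 7.75% to 8.56% for the footprint-poor genes, and 11.3% to 13.0% and 10.9% to 12.7% for the other genes. A single gene, S100a6, a small calcium-binding protein, supplied 17.0% to 22.8% of the 5′ UTR footprints of the whole group, and without it the shares on the 5′ UTR were 0.761% to 1.28% in knockdown and 0.531% to 0.779% in control lysates. RNA-seq signal on the 5′ UTR relative to the CDS, as a mean over all lysates, had a median of 0.396 for the footprint-poor genes and 0.581 for the other genes.

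**Figure D1:**
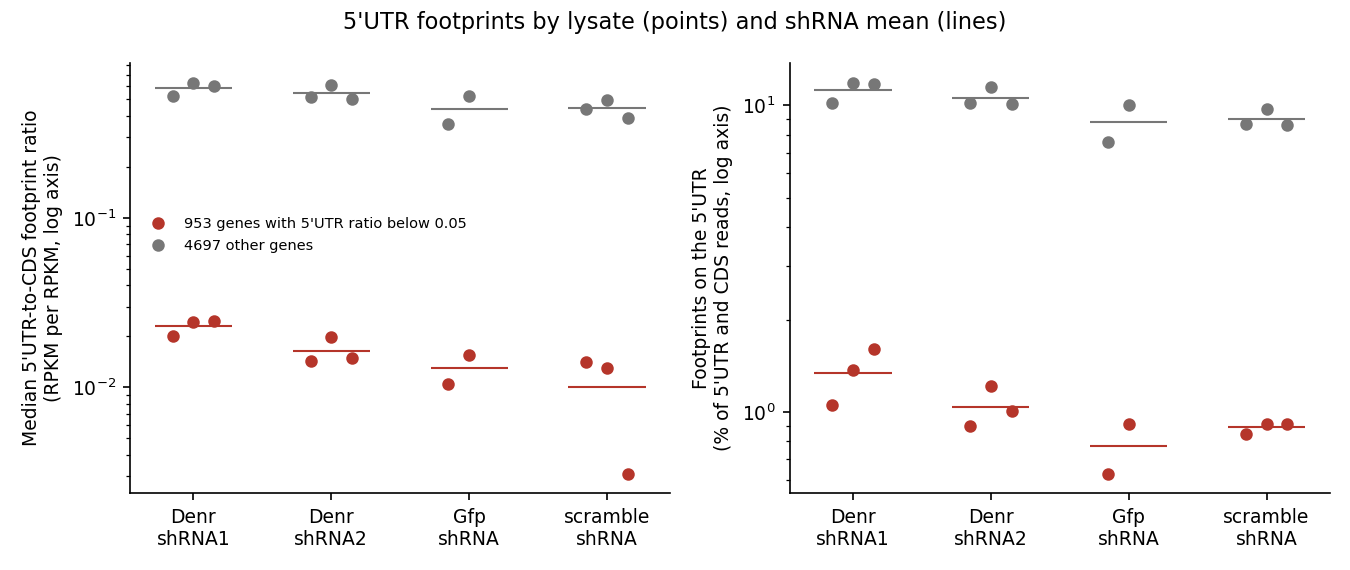
Median ratio of 5′ UTR to CDS footprint RPKM (left) and percent of footprints on the 5′ UTR (right) in each of the 11 lysates, both on log axes; points are lysates, lines are shRNA means, red marks the 953 footprint-poor genes and grey the 4697 other genes. The red medians lie between 0.00310 and 0.0245 and the grey ones between 0.359 and 0.629, with the knockdown lysates above most control lysates in both colours.

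How closely the low ratios could be measured depended on the number of reads. Summed over the 5 control lysates, a footprint-poor gene had a median of 9 reads on its 5′ UTR (quartiles 1 and 54, highest 27648 for S100a6) and 8732 on its CDS, while another gene had a median of 412 on its 5′ UTR. In RNA-seq of the same lysates, the 5′ UTR of a footprint-poor gene had a median of 206 reads (quartiles 91 and 651, lowest 14). The third scramble lysate had the most RPF-seq reads, yet 446 of the 953 genes held no 5′ UTR footprint in it. In the other controls 305 to 340 held none. No control footprint at all was found on 153 of the 5′ UTRs, and 81 had none in any of the 11 lysates. A count of 0 allows up to 3 reads, and for these 153 genes the limit on the ratio was 0.02 at the median and ranged from 0.000673 to 0.404, so that it was below 0.05 in 117. By the exact Poisson 95% interval of the summed control reads, which covers counting error only, the upper bound was below 0.05 for 701 of the 953 genes. Of the genes tied at a ratio of 0, the 3 with the most footprints expected from their CDS were Uqcrb, Ndufs6 (a subunit of complex I) and Cox6a1, which had 0 reads in every control lysate. In knockdown, Uqcrb had 1 read in 1 of the 6 lysates, and Ndufs6 and Cox6a1 had 1 read in 2 of them.

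At the other end, the values around the threshold ran on without a gap. Polr3k (RNA polymerase III) and Smu1 (a splicing factor) were just inside with control ratios of 0.049874 and 0.049891, and Ola1 and Pdcd6 were just outside with 0.050036 and 0.050157. On the knockdown mean these 4 had ratios of 0.0582, 0.0666, 0.0917 and 0.0750. The control ratios of the whole group had quartiles of 0.00435, 0.0152 and 0.0319, and the knockdown ratios 0.00696, 0.0234 and 0.0482. At or above 0.1 in knockdown were 13 genes, and at or above 0.2 was 1, Dhx33, an RNA helicase.

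The 3 genes with the highest knockdown ratios held few reads. Dhx33 (59 nt) had 4, 0 and 7 footprints on its 5′ UTR with Denr shRNA1, 2, 4 and 0 with shRNA2, and 0, 2, 1, 0 and 0 in the controls. Hibch (64 nt), an enzyme of valine breakdown, had 7, 10 and 3, then 7, 6 and 2, against 2, 2, 0, 1 and 1 in the controls. Orc5 (112 nt), of the origin recognition complex, had 2, 7 and 6, then 5, 7 and 8, against 2, 1, 4, 1 and 2. In all 3 genes the ratios of the knockdown and control lysates overlapped.

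The footprint-poor 5′ UTRs were short. The length behind the RPKM values had a median of 74 nt (quartiles 42 and 139, from 16 to 1670 nt), against 226 nt (130 and 386) for the other genes and 284 nt for the 1130 genes whose ratio was 1 or more. Of the 147 genes with a 5′ UTR of 16 to 30 nt, 118 were footprint-poor (80.3%). The share was 64.8% at 31 to 50 nt, 35.5% at 51 to 100 nt, 11.5% at 101 to 200 nt, 6.40% at 201 to 400 nt and 5.04% above that.

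**Figure D2:**
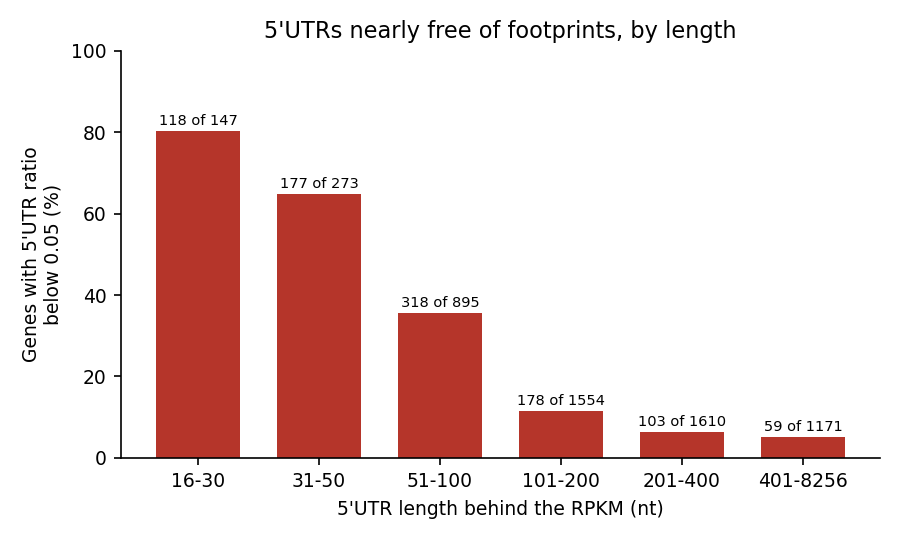
Percent of the genes passing the RNA filter whose control ratio was below 0.05, by length of the 5′ UTR in nt, with the number of genes above each bar. The share falls from 80.3% at 16 to 30 nt to 5.04% at 401 nt or more.

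Footprints were placed by their putative A-site, 15 nt or more from the 5′ end of the read, so that the first 15 nt of a transcript can hold none. With the length reduced by 15 nt, 839 of the 953 genes stayed below 0.05, among them 104 of the 118 with 16 to 30 nt. Reads that could belong to either region had been given to the CDS. The 162 genes with more than 200 nt had low RNA-seq signal on the 5′ UTR for their CDS: the median RNA ratio was 0.217 at 201 to 400 nt and 0.131 above 400 nt, against 0.521 and 0.478 for the other genes of these lengths. At 16 to 30 nt it was 0.616 against 1.05. When footprints of each region were divided by RNA-seq reads of the same region, 570 of the 953 genes remained below 0.05, and 40 other genes joined them. The part of the lower RNA signal in the low footprint ratios was not tested.

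Sequence features that the choice did not use differed between the 2 sets. They were read from the transcript with the longest CDS, available for 951 footprint-poor and 4689 other genes, and are given as shares without a test. The 5′ UTR of that transcript had the length behind the RPKM in 59.8% of the footprint-poor and 50.65% of the other genes. In the rest, the sequence read and the region measured differed in length. An AUG uORF (an AUG with an in-frame stop codon, at least 9 nt) was present in 203 footprint-poor genes (21.35%) and 53.15% of the other genes. Among the genes with a ratio of 1 or more the share was 83.7%. For genes with a single coding transcript it was 15.9% in the footprint-poor and 46.9% in the other genes. A uORF whose stop codon lay past the end of the 5′ UTR was present in 9.99% and 16.9%. An upstream AUG in frame with the CDS and without an earlier stop codon was counted among these. For all AUG uORFs the lower share was seen within lengths: 5.085% against 31.0% at 16 to 30 nt and 9.71% against 31.9% at 31 to 50 nt. At 51 to 100 nt it was 11.6% against 26.5%, and at 101 to 200 nt 24.2% against 37.2%. The difference was small at 201 to 400 nt, with 56.3% and 61.8%, and above that, with 71.2% and 77.4%. At these 2 lengths uORFs past the end of the 5′ UTR were more frequent in the footprint-poor genes, with 22.3% against 16.6% and 27.1% against 20.3%. An intron within the 5′ UTR was found in 8.73% of the footprint-poor and 38.8% of the other genes. The intron shares were 0% in both at 16 to 30 nt, 5.62% and 28.2% at 101 to 200 nt, and 42.4% and 59.5% above 400 nt. GC content had medians of 65.8% and 65.1%, and a 5′ terminal run of a C and 4 pyrimidines, as in TOP mRNAs, was found in 2.21% and 2.35%.

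The bases around the start codon differed as well. A purine at -3 together with a G at +4 was found in 610 of 951 footprint-poor genes (64.1%) and in 41.0% of the other genes. Neither was present in 2.63% and 7.19%. Most of the difference lay at +4, where a G was present in 69.7% and 48.0%, whereas a purine at -3 was common in both sets, with 91.8% and 85.8%. The G often began an alanine codon: 48.9% of the footprint-poor genes had alanine after the start codon, and 22.8% of the other genes. Within lengths the share with the purine and the G was 82.2% against 51.7% at 16 to 30 nt, 70.9% against 54.3% at 31 to 50 nt, 64.15% against 44.4% at 51 to 100 nt, 57.3% against 41.2% at 101 to 200 nt, 51.5% against 40.9% at 201 to 400 nt and 50.85% against 37.75% above. It did not fall evenly with the ratio: genes with ratios of 0.05 to 0.2, 0.2 to 0.5, 0.5 to 1 and 1 or more had 44.1%, 41.0%, 39.7% and 39.0%.

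The letters AANATGGCG, searched on the mRNA strand at the annotated start codon, were a motif chosen after the windows had been seen, and they include the purine, the G and the alanine codon counted above. They were present in 124 of 951 footprint-poor genes (13.0%) and in 72 of 4689 other genes (1.54%), so that 124 of all 196 genes with them were footprint-poor. The longer TISU element, searched by its published consensus without mismatches, was present in 38 genes (4.00%) and 16 genes (0.341%). At 16 to 30 nt it was not the more frequent in the footprint-poor genes, with 6 of 118 (5.085%) against 2 of 29 (6.90%), while at 51 to 100 nt the shares were 3.46% and 1.04%. Among genes of 101 to 200 nt, AANATGGCG was found in 8.43% and 1.09%, and among those of 16 to 30 nt in 25.4% and 17.2%, the latter being 5 of 29 other genes. The 124 genes had a median length of 57 nt, against 78 nt for the remaining 829 footprint-poor genes, and in the knockdown lysates their median ratio was 0.00768, against 0.0268. Genes with the full element included the complex I subunits Ndufa6, Ndufs3, Ndufs4, Ndufs6 and Ndufs7, Uqcrc1 of complex III, the mitochondrial ribosomal proteins Mrpl35, Mrps14 and Mrps18a, the import proteins Timm44 and Timm50, and Eif4b. A match to these letters is a description and does not show that the element is used.

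**Figure D3:**
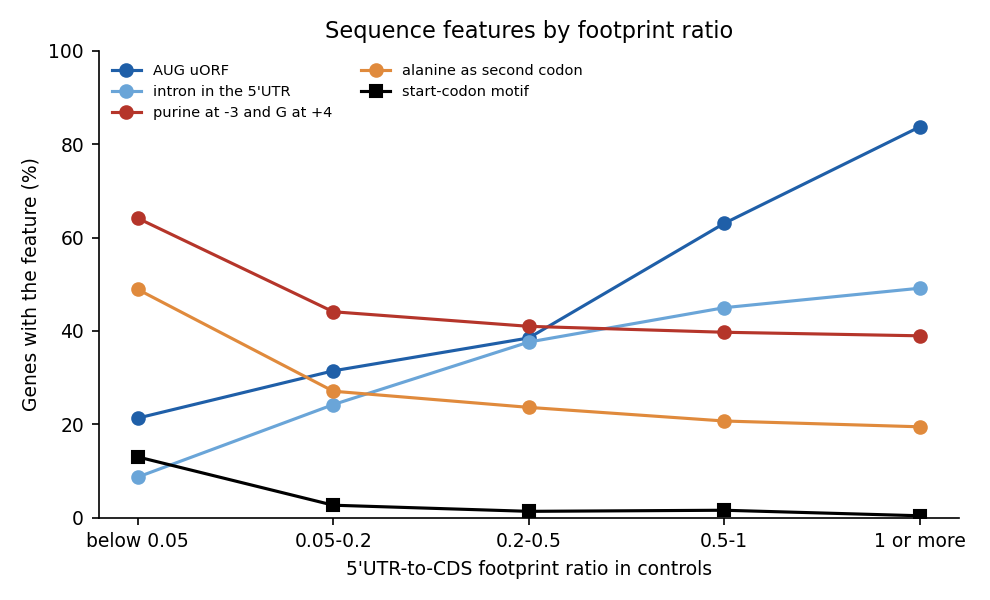
Percent of genes with each sequence feature in 5 classes of the control ratio of 5′ UTR to CDS footprints, with the footprint-poor genes at the left; the motif is AANATGGCG. AUG uORFs rise from 21.35% to 83.7% across the classes, while the purine and G, the alanine codon and the motif are highest below 0.05, at 64.1%, 48.9% and 13.0%, and change little from 0.2 upwards.

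Genes of the same machinery were often footprint-poor together. Among those passing the RNA filter these were 32 of 58 mitochondrial ribosomal proteins (55.2%), 38 of 69 subunits of oxidative phosphorylation (55.1%), 15 of 29 proteasome subunits (51.7%) and 30 of 77 cytosolic ribosomal proteins (39.0%), against 16.9% of all genes passing it. The actin cytoskeleton had 11 of 32, glycolysis 3 of 10, ER chaperones 4 of 14, and elongation factors and other TOP mRNAs 3 of 15. The list of cytosolic chaperones and chaperonins, which also holds the mitochondrial Hspe1, had 6 of 18. Genes of the fibroblast extracellular matrix had 2 of 28 and Zfp zinc-finger genes 2 of 88. None of 16 stress genes known for uORF control was footprint-poor, and the median control ratio of that list was 1.71. Lists differed in length as well: the footprint-poor members had medians of 70.5 nt for mitochondrial ribosomal proteins, 84.0 nt for oxidative phosphorylation, 61.0 nt for the proteasome and 85.5 nt for ribosomal proteins, and the genes of these lists that were not had 126, 131, 139.5 and 143 nt. Among families looked at after their genes had been seen in the group, 7 of 12 Eif3 genes, 5 of 7 Commd genes and 8 of 27 histone genes were footprint-poor.

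**Figure D4:**
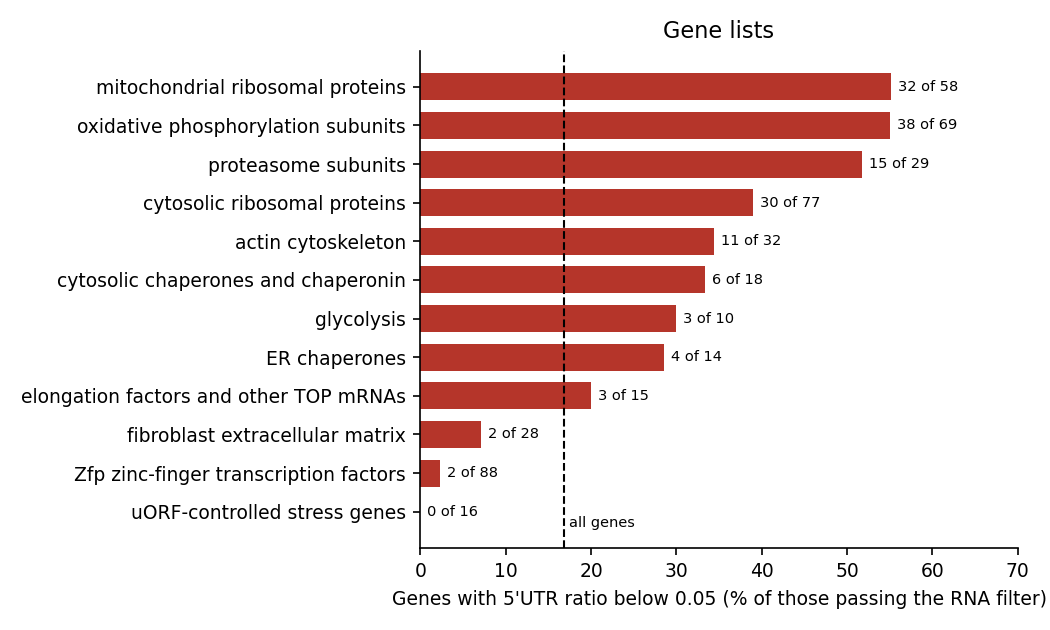
Percent of the genes passing the RNA filter that were footprint-poor, in 12 gene lists, with the numbers beside the bars and the share over all 5650 genes (16.9%) as a dashed line. Mitochondrial ribosomal proteins (55.2%), oxidative phosphorylation (55.1%) and the proteasome (51.7%) lie highest, and the stress genes with uORF control have none.

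The most abundant genes of the lists show how little their 5′ UTRs held. Rps15, of the small ribosomal subunit, has a 5′ UTR of 28 nt, the highest 5′ UTR RNA among the footprint-poor ribosomal proteins. Its 5′ UTR to CDS footprint ratio was 0.0321, 0.00736 and 0.00803 with Denr shRNA1, 0.0252, 0.0113 and 0.0197 with shRNA2, 0.0311 and 0.0167 with Gfp shRNA, and 0.0177, 0.0218 and 0.00922 with scramble shRNA, so that knockdown and control overlapped fully. Rpl8 (49 nt), of the large subunit, had 0.0149, 0.0196 and 0.0182 with shRNA1, 0.00921, 0.0135 and 0.00930 with shRNA2, and 0.00653, 0.00788, 0.00602, 0.00442 and 0.00573 in the controls. All 6 knockdown values of Rpl8 lay above all 5 control values, although the whole 5′ UTR held 22 to 50 reads per knockdown and 10 to 23 per control lysate. Atp5b (54 nt) had 0 to 7 reads per knockdown and 1 to 4 per control lysate, a ratio of at most 0.00524. Atp5l (81 nt), another subunit of ATP synthase, had ratios of 0.00588 to 0.0222 in knockdown and 0.00974 to 0.0136 in control lysates.

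In the most abundant mitochondrial ribosomal proteins and proteasome subunits, knockdown and control lysates overlapped. Mrpl33 (62 nt) had ratios of 0.00788 to 0.0242 in knockdown and 0.00135 to 0.0254 in control, and Mrpl12 (79 nt) 0.00485 to 0.00848 and 0.00711 to 0.0271. Psma2 (33 nt), of the proteasome core, had 0 to 3 reads in every lysate. Psmb4 (53 nt), of the same core, had ratios of 0.0330 to 0.0830 in knockdown and 0.0173 to 0.05 in control. Of the eIF3 subunits, Eif3e ranged from 0.00437 to 0.0109 in knockdown and 0.00806 to 0.0204 in control, and Eif3h from 0.0323 to 0.113 and 0.00783 to 0.0787.

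Among the actin genes, Actb, beta-actin, with a 5′ UTR of 109 nt, had a ratio of 0.0727, 0.102 and 0.192 with Denr shRNA1, 0.0393, 0.0960 and 0.0708 with shRNA2, 0.0261 and 0.0444 with Gfp shRNA, and 0.0495, 0.0492 and 0.0852 with scramble shRNA, on 415 to 1688 reads per lysate. Only the first Gfp value lay below all knockdown values, and the other control values lay within the knockdown range. Myl6 (64 nt), a myosin light chain, had 0.0283 to 0.0785 in knockdown and 0.0235 to 0.0646 in control. Ppia (468 nt) had 0.0488, 0.0689 and 0.0895 with shRNA1, 0.0263, 0.0369 and 0.0299 with shRNA2, and 0.0173 to 0.0363 in the controls, so that all shRNA1 lysates and the second shRNA2 lysate were above all controls. Hspe1 (278 nt), a mitochondrial chaperonin, had 0.0440 to 0.0867 and 0.0273 to 0.0641. The ER foldases Ppib (97 nt) and Pdia6 (73 nt) reached at most 0.0205 and 0.0104 in any of the 11 lysates, the glycolytic Pgam1 (177 nt) at most 0.0239, and Aldoa (1421 nt) between 0.0195 and 0.0450. The collagen-modifying Plod1 (90 nt) had 0.0190 to 0.0341 in knockdown and 0 to 0.0198 in control, and Plod3 (667 nt) 0.0507 to 0.0833 and 0.0417 to 0.0567. The zinc-finger gene Zfp511 (63 nt) had no 5′ UTR footprint in any lysate and Zfp830 (27 nt) 1 read in 1 lysate.

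An AUG uORF in the sequence did not preclude a place in the group. The most were found in Txn2, mitochondrial thioredoxin, with 11, in Tbcb, a tubulin folding cofactor, with 10, and in Sirt1, a deacetylase, with 9. Each upstream AUG was counted separately, even where several share a stop codon. Txn2 (1052 nt) had ratios of 0.0152 to 0.0266 in knockdown and 0.0143 to 0.0244 in control, and Tbcb (579 nt) 0.0238 to 0.0434 and 0.0165 to 0.0453. Both thus overlapped between the conditions. For Sirt1 the length behind the RPKM was 65 nt, whereas the transcript searched for uORFs has 585 nt, and 3 reads were found in all 11 lysates.

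The CDS of the footprint-poor genes had a higher TE than that of the other genes in the knockdown lysates, which the choice did not use. The TE, the ratio of CDS footprints to CDS RNA, had a median of 0.34 on the log2 scale over genes (quartiles 0.01 and 0.67), against -0.07 (-0.87 and 0.46) for the other genes and -1.23 for those with a ratio of 1 or more. Per RNA of the same region, 5′ UTR footprints had a median of 0.0653 for the footprint-poor genes and 0.918 for the other genes. CDS RNA had medians of 102.7 and 53.4 RPKM, and CDS length 846 and 1278 nt. High CDS footprints lower the ratio that chose the genes, so these medians are a description.

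The next comparisons asked whether Denr knockdown changed the footprint-poor genes. The targeted gene had 34.4 to 44.0 RPKM of CDS RNA with shRNA1, 15.5 to 20.8 with shRNA2 and 165 to 190.1 in the controls, and was itself not footprint-poor (ratio 0.310). All 10 fibroblast markers were present, with a summed CDS RNA of 9252 to 11790 RPKM in knockdown and 8868 to 11180 in control lysates. Of the epithelial, blood, endothelial and neural markers only Cdh1, Lyz2 and Cdh5 were in the tables, at no more than 4.05, 52.35 and 1.10 RPKM. Differences were tested with limma on log2(RPKM + 0.1) across all genes, and genes passed at an FDR of 0.1 by Benjamini-Hochberg.

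Between knockdown and control, CDS RNA abundance fell in 7 and rose in 4 of the 953 genes, which is 1.15%, beside 3.55% of all 10516 genes (0.865% lower and 2.68% higher). The choice used no CDS RNA value, but it required 10 RPKM of 5′ UTR RNA in the same control libraries. The 10516 genes had no such minimum, so these counts and shares are a description too. In bulk lysates a change in the make-up of the cells and in RNA per cell cannot be told apart. Ly6a, a surface protein also known as Sca-1, had a CDS RNA abundance of 366, 321 and 316 RPKM with shRNA1 and 484, 446 and 451 with shRNA2, against 772, 575, 705, 631 and 617 in the controls. Every knockdown lysate was below every control, and the log2 change was -0.74 ± 0.12 (SE; limma, adjusted p = 0.00807). Pmm2, an enzyme of mannose metabolism, fell from 87.6 to 109.9 RPKM in the controls to 66.5 to 81.6 in knockdown (log2 change -0.46 ± 0.08, SE; limma, adjusted p = 0.0113). Esd, esterase D, fell from 461 to 661 RPKM to 384 to 445 (-0.41 ± 0.09; limma, adjusted p = 0.0322). Higher in knockdown were Gm11110 (13.3 to 18.4 against 9.19 to 12.7 RPKM, log2 change 0.45 ± 0.10; limma, adjusted p = 0.0364), Zswim7 (17.8 to 21.9 against 11.7 to 18.05 RPKM, 0.41 ± 0.11; limma, adjusted p = 0.0784), and Atp6v1g1, a subunit of the vacuolar proton pump (638 to 895 against 496 to 659 RPKM, 0.40 ± 0.10; limma, adjusted p = 0.0555). The other 5 were Ccdc137, Cd34, Serpinb6a, Sgk1 and Eif1. The count was 24 without the first Denr shRNA1 lysate, 40 without the first Gfp lysate, and 4 and 5 without the first and the second scramble lysate. Zswim7 lost its call without any of 7 lysates and Atp6v1g1 without any of 4, Esd without the first and Gm11110 without the second scramble lysate. With Denr shRNA1 alone against the controls, the adjusted p of limma was 0.1615 for Esd, 0.101 for Gm11110, 0.246 for Zswim7 and 0.242 for Atp6v1g1, and with Denr shRNA2 alone 0.112 for Gm11110 and 0.1615 for Zswim7, which also missed at 0.111 when libraries were centred on their median. Against scramble shRNA alone, 36 footprint-poor genes passed as higher and 21 as lower. With the replicate number as a block in the fit, 37 passed as higher and 25 as lower.

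None of the footprint-poor ribosomal, mitochondrial ribosomal, oxidative phosphorylation, proteasome, chaperone, glycolysis, actin or matrix genes passed the test for RNA abundance between knockdown and control. The median log2 change was 0.02 for the 30 cytosolic ribosomal proteins, 0.01 for the 38 oxidative phosphorylation subunits and -0.06 for the 15 proteasome subunits. For the 6 genes of the list of cytosolic chaperones and chaperonins it was -0.12. Over all 953 genes it was -0.00, with 49.5% above 0, and over all genes tested 0.03, with 57.1% above 0. For the other genes, which passed the same RNA filter, the median was 0.00, as for the footprint-poor genes.

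CDS footprints in knockdown against control are a description, since the control values were the denominator of the ratio. They were lower in 29 and higher in 60 footprint-poor genes at the FDR of 0.1 (9.34%; background 10.0%, with 4.55% lower and 5.47% higher). Ly6a had 558 to 961 RPKM in knockdown and 1127 to 1353 in control, Wdr1, an actin disassembly factor, 125 to 215 and 220 to 262, and Nemf, a quality control factor on stalled 60S subunits, 11.2 to 18.9 and 17.3 to 22.3. Agtrap had 40.7 to 55.8 and 26.1 to 46.0, the sterol enzyme Msmo1 262 to 319 and 166 to 246, and Atp6v1g1 910 to 1032 and 635 to 793. For Ly6a, Wdr1, Msmo1 and Atp6v1g1 the groups did not overlap. Wdr1 lost its call without any of 4 lysates (the first 2 of Denr shRNA1 and of scramble), Nemf without any of 5 (the first 2 of Denr shRNA1 and all of scramble) and Agtrap without any of 3 (the second of Denr shRNA2, the first and the third of scramble). The count was 34 to 166 when each lysate was left out in turn, with 166 without the second Gfp lysate, 34, 43 and 52 without each scramble lysate in their order, 49 without the second Denr shRNA1 lysate, and 54 and 50 without the first and second Denr shRNA2 lysate.

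The TE of the CDS, again a description, passed in 0 of the 953 genes with limma, where 50 of all genes (0.475%) were lower and 0 (0.0%) higher. At an unadjusted p under 0.05 there were 28 footprint-poor genes (2.94%), against 6.66% of all genes. The median log2 change was 0.02, with quartiles of -0.04 and 0.07, and over all genes -0.01. Without the first or the second Denr shRNA1 lysate, 1 gene passed.

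5′ UTR footprints by themselves were higher in knockdown in 43 and lower in 1 of the 953 genes (4.62%; background 6.79%, with 6.73% higher and 0.0577% lower), again as a description. The relative 5′ UTR translation, log2 of 5′ UTR footprints minus log2 of CDS footprints, was higher in knockdown by a median of 0.49 in the footprint-poor genes and 0.33 over all 10400 genes, when all controls that had chosen the genes were used. With Denr shRNA1 alone the medians were 0.69 and 0.38, and with Denr shRNA2 alone 0.27 and 0.27. Their size depends on the pseudocount: they were 0.33 and 0.26 with 1 RPKM, and 0.57 and 0.34 with 0.01 RPKM. Relative 5′ UTR translation passed in 5 genes, all higher (0.525%; background 1.08% higher and 0.0% lower). Rpl8, with 22 to 50 reads per knockdown and 10 to 23 per control lysate, was among them (log2 change 1.17 ± 0.27, SE; limma, adjusted p = 0.0994). The other 4 held very few reads. Acbd3 had 7 reads in the 6 knockdown and 1 in the 5 control lysates together. Fbxo28, an F-box protein, had 1 or 2 reads in 5 of 6 knockdown lysates and 0 in all controls, Acaa2, a thiolase, 1 to 3 in knockdown and 1 in 1 control, and Exosc5, of the RNA exosome, 1 to 3 in knockdown and 2 in 1 control. Without the second Gfp lysate the count was 44, and without any other lysate 0 or 1. With the replicate number as a block in the fit it was 109, beside 1798 of all genes. RNA-seq signal of the 5′ UTR relative to the CDS passed in 0 genes (background 0.0% in both directions; limma, 33 footprint-poor genes at an unadjusted p under 0.05, 3.46%, against 4.78% of all), with a median log2 change of 0.04, as over all genes with 0.03.

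To compare the genes with controls that had not chosen them, the choice was repeated on the 3 scramble lysates alone, which gave 953 genes, and on the 2 Gfp lysates alone, which gave 964, with 791 in both (83.0% and 82.1%). Of genes chosen on scramble, the median ratio was 0.0154 in scramble, 0.0165 in Gfp and 0.0243 in knockdown lysates. Of genes chosen on Gfp it was 0.0149 in Gfp, 0.0161 in scramble and 0.0237 in knockdown lysates. On the log2 scale the median change against scramble was 0.56 for the genes chosen on scramble and 0.42 for those chosen on Gfp, and against Gfp 0.50 for the genes chosen on Gfp and 0.39 for those chosen on scramble. Over all genes tested the medians were 0.31 against scramble and 0.34 against Gfp. The values against Gfp rest on 2 lysates: for genes chosen on scramble the median was 0.14 (all genes 0.08) without the first Gfp lysate and 0.58 (all genes 0.56) without the second. The share of genes above 0 was lower than over all genes, with 72.5% beside 77.9% against scramble and 68.9% beside 80.3% against Gfp. Where a 5′ UTR held no read in any lysate, the sign of the change comes from the CDS footprints alone. Of the 953 genes chosen on all controls, 81 were of this kind. Their part in the lower share was not tested.

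**Figure D5:**
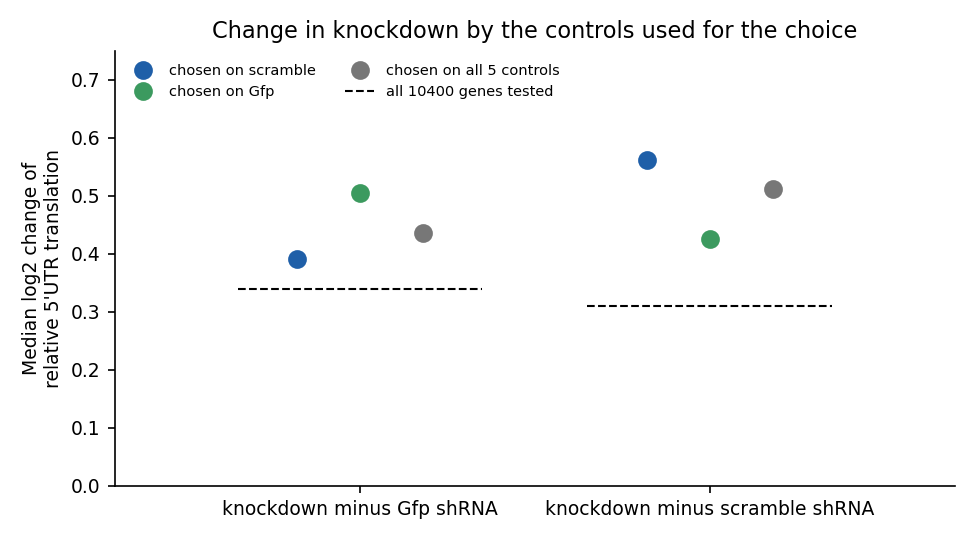
Median log2 change of relative 5′ UTR translation in the 6 knockdown lysates against Gfp and against scramble lysates, for genes chosen on scramble (blue), on Gfp (green) or on all 5 controls (grey), with the median over all 10400 genes as a dashed line. Against the controls that did not choose them the medians are 0.39 and 0.42, nearer to the dashed lines at 0.34 and 0.31 than with the choosing controls (0.50 and 0.56), although the value of 0.39 becomes 0.14 without the first and 0.58 without the second Gfp lysate.

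Single genes rarely passed in these comparisons, which share the 6 knockdown lysates and take the spread between lysates from all 4 shRNA groups, those that chose the genes included. Against Gfp, 2 of the 953 genes chosen on scramble were lower and 0 higher (0.210%; background 0.0288%, with 0.0192% lower and 0.00962% higher). Both were cases of single reads: Pigk, of the GPI transamidase, and R3hdm4 had 1 read in each Gfp lysate and 0 in all other 9 lysates. Against scramble, 6 of the 964 genes chosen on Gfp were higher and 0 lower (0.622%; background 0.51%, with 0.481% higher and 0.0288% lower). Wdr92, a chaperone cofactor, had 2, 1, 4, 2, 3 and 3 reads in the knockdown lysates and 0 in all scramble lysates, and 1 in each Gfp lysate (limma, adjusted p = 0.0158). Rpe, an enzyme of the pentose phosphate pathway, had 2, 2, 4, 1, 6 and 1 reads and 0 in all scramble lysates, but 5 and 2 with Gfp shRNA (limma, adjusted p = 0.0375). Exosc5 had 1 to 3 reads in knockdown, 0 in all scramble lysates and 2 and 0 with Gfp shRNA (limma, adjusted p = 0.0661). Exosc5 lost its call without any of 9 of the 11 lysates, and Rpe without the second Denr shRNA1 or the third scramble lysate. The count against scramble was 1 without the second Denr shRNA1 lysate, 10 without the first or the second scramble lysate and 3 without the third. Against Gfp it was 3 without the first or the second scramble lysate, 4 or 6 without the first or the third Denr shRNA1 lysate, 4 without the second Denr shRNA2 or the third scramble lysate, and 10 and 8 without the first and the second Gfp lysate.

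The 2 Denr shRNAs were compared with each other. The differences hold no control value, but the spread behind the tests comes from all 4 shRNA groups, controls included. CDS RNA abundance was lower with shRNA2 in 7 and higher in 6 of the 953 genes (1.36%; background 2.06%, with 0.932% lower and 1.13% higher). Spcs3, a subunit of signal peptidase, had a CDS RNA abundance of 94.3, 88.5 and 72.1 RPKM with shRNA1 and 193, 187 and 163 with shRNA2, and 153, 165, 153, 148 and 114 in the controls. All shRNA2 lysates were above all shRNA1 lysates (log2 difference 1.10 ± 0.13, SE; limma, adjusted p = 0.00400), and the controls lay above all shRNA1 lysates and overlapped with the lowest shRNA2 lysate. Snrpc, of the U1 snRNP, had 262, 210.1 and 223 RPKM with shRNA1 and 135, 127 and 117 with shRNA2, with 181 to 232 in the controls (-0.87 ± 0.12; limma, adjusted p = 0.00651). Ccl9, a chemokine, had 154, 113 and 96.7 against 66.7, 60.6 and 55.7 RPKM (-0.96 ± 0.15; limma, adjusted p = 0.0120), while the controls themselves split into 120.1 and 114 with Gfp and 45.9 to 57.1 with scramble shRNA. Dcxr, a xylulose reductase, had 36.6 to 39.3 against 22.7 to 25.3 RPKM (-0.67 ± 0.10; limma, adjusted p = 0.00779), and Ncbp2, of the nuclear cap-binding complex, 59.2 to 73.1 against 98.2 to 104 (0.64 ± 0.09; limma, adjusted p = 0.00897). Capzb, of the actin capping protein and the only one of the 33 actin genes to pass, had 57.9 to 69.8 against 90.1 to 112 (0.66 ± 0.14; limma, adjusted p = 0.0550). Capzb lost its call without any of 4 knockdown lysates, and the count was 6 without the second Denr shRNA1 lysate and 8, 5 and 5 without each Denr shRNA2 lysate in their order.

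Most footprint-poor genes had slightly lower RNA and slightly higher TE with shRNA2 than with shRNA1. The median log2 difference of CDS RNA was -0.08 (27.3% of genes above 0), against -0.02 (45.6%) over all genes, and that of TE was 0.08 (76.6% above 0), against 0.02 (54.3%). Without the first Denr shRNA1 lysate these medians were -0.02 for RNA and 0.02 for TE, against -0.00 and 0.00 over all genes. The ribosomal proteins had medians of -0.25 for RNA and 0.12 for TE, and the oxidative phosphorylation subunits -0.19 and 0.13. The TE of 0 genes passed with limma (background 0.0%), with 12 footprint-poor genes at an unadjusted p under 0.05 (1.26%, against 3.73% of all genes).

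Relative 5′ UTR translation was lower with shRNA2 in 2 genes and higher in 0 (0.210%; background 0.0577%, with 0.0192% lower and 0.0385% higher). Mydgf, a secreted growth factor, had 2, 1 and 4 reads on its 29 nt with shRNA1, 0 in all shRNA2 lysates and 1 to 3 in the controls (limma, adjusted p = 0.0241). BC003965 (48 nt) had 3, 2 and 1 reads with shRNA1 and 0 in all other lysates (limma, adjusted p = 0.00224), so that in these lysates its test takes its spread from CDS footprints alone. With 1 RPKM as the pseudocount, or with voom on the reads, neither passed. The median log2 difference over the footprint-poor genes was -0.32, against -0.09 over all genes, with a median SE of 0.79. The count was 5 without the third Denr shRNA1 or the second Denr shRNA2 lysate and 4 without the first or the second Gfp lysate.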

How the data were processed

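RPF-seq and RNA-seq libraries of 11 lysates were analysed. The authors trimmed reads with cutadapt, aligned them to rRNA, tRNA, cDNA and genome (Bowtie2 2.2.1, TopHat2 2.0.11; GRCm38.p2), assigned footprints by their A-site, and deposited the RPKM of CDS and 5′ UTR. The libraries of each assay had been normalized separately by the authors with edgeR. From the RPKM, whole reads and region lengths were recovered (10107 of 10400 5′ UTRs). RPF-seq libraries held 10927308 to 21649886 reads and RNA-seq libraries 8514086 to 20109725. Lengths equalled the annotation for 80.7% of 2560 genes with a single coding transcript.

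Symbols and sequences came from GENCODE vM21, which shares the build. limma 3.58.1 in R 4.3.3 was run on log2(RPKM + 0.1) with eBayes trend over all genes and tested on simulated data; the contrasts between shRNAs used a fit with 4 shRNA means. Alternatives were pseudocounts of 1 and 0.01, mean CDS RNA of at least 1 RPKM, no trend, the replicate block, centred libraries, each shRNA or scramble alone, each lysate left out, voom on reads, and for the choice an RNA minimum of 20 or 5 RPKM. The members and gene lists were chosen with earlier results of these data known. Genes were named by rule: per list the 2 with the highest control 5′ UTR RNA, the lowest and threshold ratios, the 3 largest changes per test and direction among calls, the 3 highest knockdown ratios and the 3 with the most uORFs. Ties at a ratio of 0 were broken by expected reads. Families, the motif, Rps3 as a gene with it, and the 5 remaining RNA calls were named after their values had been seen.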

Additional observations from a re-analysis of the deposited data

Results flagged for a closer look

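Among control lysates, the share of footprints of the footprint-poor genes that lay on the 5′ UTR was 0.628% in the first Gfp lysate and 0.849% to 0.914% in the other 4. The gap below the rest made up 0.773 of the whole range, above the critical value of 0.71 for 5 samples. It was the only flag among 10 library medians and shares examined, of which about 1 in 20 would be flagged by chance. That check did not compare replicate libraries gene by gene. By chi-square per gene, the first Denr shRNA1 RNA-seq library lay at 45.5 and 54.6 from the second and the third. These differed from each other by 7.07. The Gfp RNA-seq libraries differed by 27.9, and the remaining RNA-seq replicate pairs by 4.89 to 20.2. The cause was not tested.

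The lysates of the 2 Denr shRNAs differed in some genes, by the test of shRNA2 against shRNA1 (limma, FDR 0.1). These were 13 footprint-poor genes in CDS RNA abundance (1.36%, beside 2.06% of all genes). In relative 5′ UTR translation there were 2 (0.210%, beside 0.0577% of all genes). Whether the differences come from the loss of Denr was not tested, as the contrast holds no control. The log2 differences in RNA were -0.96 for Ccl9, -0.87 for Snrpc, -0.67 for Dcxr, 1.10 for Spcs3, 0.66 for Capzb and 0.64 for Ncbp2. Those in relative 5′ UTR translation were -5.74 for Mydgf and -4.67 for BC003965. The last 2 values depend on the pseudocount, since all shRNA2 lysates had 0 reads there.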

How the results depend on the processing

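Single genes were followed under the alternatives only where they were among the 3 largest changes per test and direction. None of these changed its direction, but the balance of lower and higher calls did change. Other named genes, such as Rpl8 and Acbd3, were not followed. For CDS RNA in knockdown, 7 lower and 4 higher became 21 and 36 with scramble alone and 14 and 26 without the first Gfp lysate, for CDS footprints 29 and 60 became 28 and 21 with shRNA1 alone, and for relative 5′ UTR translation 0 and 5 became 1 and 0 with shRNA2 alone. Counts of footprint-poor genes that passed moved by over 1.5 times in these cases, and the cause was not tested. For CDS RNA in knockdown against control (11) the count was 57 with scramble shRNA alone, 6 with Denr shRNA1 alone, 18 with Denr shRNA2 alone, and 4 to 40 with each lysate left out. For CDS footprints (89) it was 241 with scramble alone, 49 with shRNA1 alone and 34 to 166 with a lysate left out. For TE (0) it was 1 with a pseudocount of 1, 1 without the trend and 0 to 1 with a lysate left out. For relative 5′ UTR translation (5) it was 23 with a pseudocount of 1, 9 without the trend, 3 with shRNA1 alone, 1 with shRNA2 alone, 39 with voom and 0 to 44 with a lysate left out. Between the shRNAs, CDS RNA (13) gave 5 to 17 with a lysate left out, and relative 5′ UTR translation (2) gave 0 with a pseudocount of 1, 0 with voom and 2 to 5 with a lysate left out. Against Gfp (2) it gave 0 with a pseudocount of 1, 4 with 0.01 and 2 to 10 with a lysate left out, and against scramble (6) 1 to 10. The median knockdown ratio was 0.0636 as 5′ UTR footprints over 5′ UTR RNA, in place of 0.0197. Per RNA of each region 570 genes stayed below 0.05. The difference in median GC content was -0.62 percentage points for genes with a single transcript, in place of 0.73.

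With the replicate block the counts were 62 for CDS RNA (25 lower, 37 higher; 1003 of all genes), 187 for CDS footprints (1940 of all), 1 for TE (58 of all) and 109 for relative 5′ UTR translation (1798 of all) in knockdown against control, 96 for CDS RNA between the shRNAs (965 of all) and 11 against scramble (254 of all), and it moved no other count by over 1.5 times. The numbers were not taken as pairs, because same-numbered lysates did not all deviate together. The lowest correlation among 15 same-numbered pairs was -0.0818 for RNA (mean 0.326, highest 0.775) and -0.00335 for CDS footprints (0.180, 0.323). It was -0.126 for TE (0.226, 0.728) and -0.0187 for relative 5′ UTR translation (0.0410, 0.0933). Even so, 7, 9, 9 and 10 of 11 lysates correlated best with their own number, so lysates of a number shared part of their spread. The main fit leaves this out, and its small counts hold only for a fit without the block. Depth limits single genes: the median footprint-poor 5′ UTR held 9 control reads, and the median SE of the relative change was 0.61, against 0.26 over all genes.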
